A study of Mus musculus with 4 samples.

Results

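Interstitial stroma of the mouse testis in organ culture was described here from single-cell RNA sequencing. Its cells were chosen by transcript content: at least 500 detected genes, at most 20% of the unique molecular identifiers (UMIs, each counting 1 captured RNA molecule) from mitochondrial genes, and at least 0.2% of UMIs from Pdgfra, Tcf21 and Dcn together. Cells at or above 0.3% for Acta2 and Myh11, 0.2% for Cyp11a1, Hsd3b1 and Star, or 0.3% for Aard, Cst9 and Cldn11 were left out, as were cells with more than 2 UMIs of Ddx4 and Dazl. These lines remove cells rich in transcripts of peritubular myoid, Leydig, Sertoli and germ cells. After 2 days of culture 1349 cells passed this gate and after 7 days 824, together 2173 of the 12859 deposited cells of both cultures. The same gate in vivo held 715 cells at 9 days postpartum (dpp) and 470 at 14 dpp, which served as the reference.

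All 4 libraries came from testes of C57BL/6 mice that carry the Acr-Gfp transgene, whose name gives the promoter of Acr, a gene of germ cells. For culture, testes removed at 7 dpp were cut into fragments and kept on agarose in α-MEM with AlbuMAX beneath a PDMS ceiling chip for 2 or 7 days, so that age and culture time add up to 9 and 14 days. Each group was 1 library, and the number of animals behind it is not given in the sources used here. Unless stated otherwise, 4 values of a gene or list stand in the order of 2 days of culture, 7 days of culture, 9 dpp in vivo and 14 dpp in vivo. The 2-day pair sets the first against the third, and the 7-day pair the second against the fourth. No difference below has a replicate check, no test between groups was run, and culture and library cannot be told apart. Intervals cover counting error only. One protocol text of the submission mentions female gonads. The gate cells had 210 to 537 UMIs of the Y-linked gene Eif2s3y in each library.

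The interstitium of the testis holds fibroblast-like stromal cells between the tubules, beside Leydig cells, vessels and macrophages. Pdgfra is a receptor for platelet-derived growth factors, Tcf21 a transcription factor of interstitial mesenchyme, and Dcn encodes decorin, a proteoglycan that binds collagen. Such cells build matrix, answer hedgehog ligand from Sertoli cells and include precursors of Leydig cells. Fibroblasts in many tissues also respond to injury and microbial products through NF-kB, C/EBP and interferon pathways, with release of chemokines and acute phase proteins.

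The gate cells made up 18.9% of the cells that passed the filter on genes and mitochondrial UMIs in the 2-day culture (95% Clopper-Pearson interval 18.0 to 19.8) and 13.5% at 9 dpp (12.6 to 14.5). The shares were 16.8% in the 7-day culture (15.7 to 17.9) and 7.42% at 14 dpp (6.78 to 8.09). The log2 ratio of shares was 0.49 in the 2-day pair (0.37 to 0.61) and 1.18 in the 7-day pair (1.02 to 1.33). With the line for Acta2 and Myh11 set at 0.1%, these ratios were 0.31 and 1.01. The log2 ratio of shares at 14 against 9 dpp was −0.87 (−1.02 to −0.71), and at 7 against 2 days of culture −0.17 (−0.29 to −0.06). A share of captured cells depends on how well each cell type survives dissociation, which was not measured.

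The gate cells had medians of 4219, 4611, 6002 and 4770 UMIs, and summed totals of 2356788 to 6409166 UMIs per library. Just inside the line of 0.2%, up to 0.25%, lay 92, 32, 27 and 11 cells, and just outside it, down to 0.15%, lay 110, 25, 27 and 9. The line for Acta2 and Myh11 took out 326 to 385 cells per library that would otherwise have entered. Any 2 libraries shared 35 to 86 cell barcodes, and at most 3 of these were gate cells in both. Scrublet, a caller of doublets, marked 11, 1, 1 and 2 gate cells.

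The label was checked against the other markers. Lum, which encodes the matrix proteoglycan lumican, had at least 1 UMI in 31.3%, 33.6%, 27.6% and 26.6% of cells after each cell was thinned to 2000 UMIs, with 15 to 98 shallower cells per library left out (40.1%, 43.2%, 39.9% and 36.6% unthinned). In germ gate cells, which should lack it, the shares were 0.724%, 0.338%, 0.158% and 0.0823%. Ly6a, an antigen of fibroblasts and progenitor cells that interferon also induces, was detected in 67.2% and 24.4% of cultured cells but in 0.857% and 9.01% at 9 and 14 dpp. In germ gate cells the Ly6a shares were 2.47%, 0.253%, 0.0394% and 0.110%. A cell without a UMI at this depth may still express the gene, so the shares are no count of expressing cells. Markers of other cells were summed as CPM (the UMIs of a gene scaled to one fixed total for each library). The 7 Sertoli markers that the rule did not use summed to 185, 78.8, 92.2 and 143 CPM. The 8 endothelial markers summed to 81.0, 107, 162 and 113 CPM and the 8 pericyte markers to 81.4, 74.8, 44.4 and 53.0. Pericyte sums were thus higher, and endothelial sums lower, in each culture than in its in vivo library. The part of these transcripts in the results was not tested. The 7 germ cell markers that the rule did not use summed to 110, 57.3, 45.0 and 113 CPM. They were thus higher in the 2-day pair, with 5 of 7 called, and lower in the 7-day pair, with 3 of 5 called. Over all measured genes 6.39% were higher in the 2-day pair and 4.34% lower in the 7-day pair. In the 2-day pair 1 germ cell marker met the UMI minimum given below in both libraries, and it was higher. In the 7-day pair 1 did and was not called, so the minimum itself bears on these counts. The part of germ cell transcripts in the results was not tested. Markers of mesothelium and epithelium summed to 2.84 to 8.06 CPM, and those of lymphocytes and neutrophils to 0 to 0.468 CPM.

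For expression, UMIs were summed over the gate cells of a library. A gene counted as measured with at least 50 UMIs over a pair and as called when the ratio of CPM plus 1 passed 2-fold. A gene that reached 50 UMIs in only 1 library of a pair entered through that library, so the minimum bears on its direction, and list counts and medians below describe the measured members and no others. For the lists that rest on such genes, the members with 50 UMIs in both libraries are given apart. In the 2-day culture against 9 dpp, 647 of 10120 measured genes (6.39%) were at least 2-fold higher and 697 (6.89%) at least 2-fold lower. In the 7-day culture against 14 dpp, 503 of 8992 (5.59%) were higher and 390 (4.34%) lower. The median log2 ratio over all measured genes was −0.16 and −0.01. Scaling by TMM factors, which centre the bulk of genes, moved the first median to 0.00 and the counts of the 2-day pair to 770 higher and 520 lower. The 2-day log2 ratios below are without this scaling. Of the 8940 genes measured in both pairs, 276 were higher in both, which is 276 of 498 in the 2-day pair and 276 of 488 in the 7-day pair. Another 204 were lower in both, of 552 and 377.

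**Figure D1:**
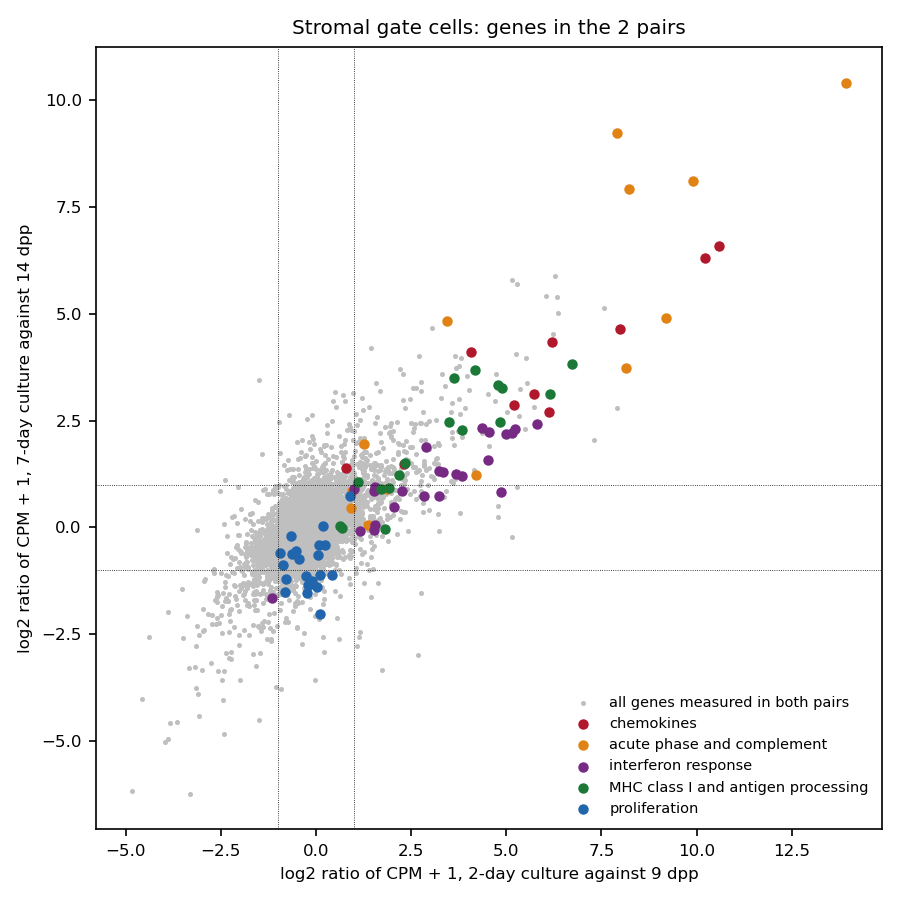
Each point is a gene measured in both pairs, with its log2 ratio of CPM + 1 in the 2-day pair on the x axis and in the 7-day pair on the y axis. Dotted lines mark 2-fold, and coloured points are members of 5 gene lists. Saa3 sits farthest to the upper right at 13.93 and 10.42. The upper right corner past 2-fold holds the 276 genes higher in both pairs, and also Cldn11 and Myh11, which the rule limits.

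Many acute phase proteins and complement factors, secreted proteins of innate defence, were far higher in cultured stroma. Of 17 measured members, 15 were at least 2-fold higher and 0 lower in the 2-day pair (median log2 ratio 4.20, against −0.16 over all genes). In the 7-day pair 9 of 13 were higher and 0 lower (median 3.74). Of the 20 members in the files, 11 of the 17 and 8 of the 13 reached 50 UMIs in the culture library only. Of those with 50 UMIs in both libraries, 4 of 6 were higher in the 2-day pair and 1 of 5 in the 7-day pair. Saa3 encodes a serum amyloid A protein that cells outside the liver make. Its level was 32551, 4267, 1.08 and 2.12 CPM, with 5 UMIs in each in vivo library. Both cultures thus stood far above both in vivo libraries, and the 2-day culture above the 7-day culture. The fold was 30086 in the 2-day pair (95% counting interval 12892 to 92659) and 2010 in the 7-day pair (861 to 6192). Reads of Saa1, Saa2 and Saa3 may be split between near-identical copies. Saa1 was at 37.6, 27.4, 15.1 and 6.37 CPM, with log2 ratios of 1.26 and 1.95.

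The other members of this group followed different courses between days 2 and 7. Hp, which encodes the haemoglobin-binding protein haptoglobin, was at 1175, 395, 0.216 and 0.424 CPM. Serpina3n, a protease inhibitor of a family of close copies, was at 709, 232, 0.216 and 6.79 CPM. Lcn2, which encodes the iron-scavenging protein lipocalin 2, was at 281, 18.0, 0 and 0.424 CPM. These 3 genes were lower at 7 than at 2 days of culture, Hp by 2.98-fold (2.82 to 3.14) and Lcn2 by 15.6-fold (12.4 to 19.9). C3, the central complement component, went the other way, with 291 CPM at 2 days and 604 at 7 days, against 0.216 and 0. It was 2.07-fold higher at 7 than at 2 days (1.95 to 2.20), and C4b, another complement component, was at 14.5 and 63.6 CPM in culture. Serpina3g was at 361 and 243 CPM in culture against 0.216 and 0 in vivo. Serping1, which encodes the C1 inhibitor, was at 1645, 1082, 637 and 1041 CPM and C1s1, a C1 protease, at 464, 491, 244 and 358. Both were thus well expressed in vivo too, and neither was called in the 7-day pair.

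**Figure D2:**
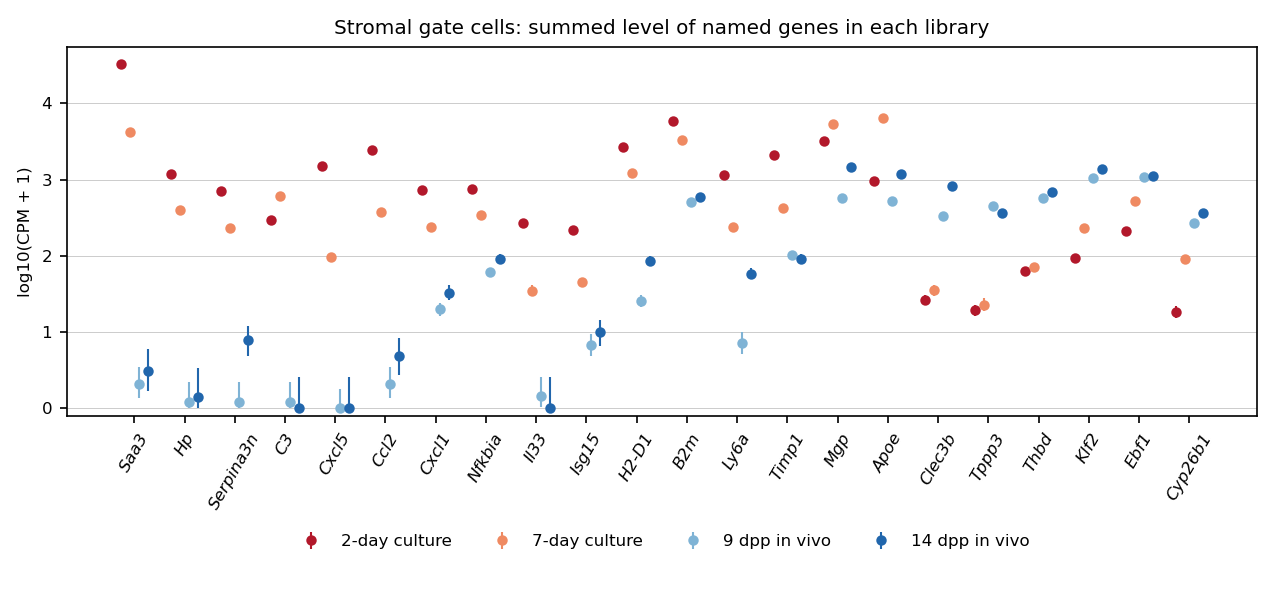
The y axis gives log10 of CPM + 1 of summed gate cells for 22 genes along the x axis. Each point is 1 library and bars are exact 95% Poisson intervals, which cover counting error only. Inflammatory genes on the left lie higher in both cultures, and Clec3b, Tppp3, Thbd, Klf2, Ebf1 and Cyp26b1 on the right lie lower in both cultures than in both in vivo libraries.

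Of chemokines, which attract leukocytes, 12 of 13 measured members were at least 2-fold higher in the 2-day pair (median log2 ratio 6.13) and 10 of 10 in the 7-day pair (3.61), with 0 lower in either. The files hold 21, and 10 of the 13 and 7 of the 10 reached 50 UMIs in the culture library only. Of the 3 with 50 UMIs in both libraries, 2 were higher in the earlier pair and all 3 in the later one. With members at 0 UMIs in a library set to a floor of 3 UMIs, the medians were 6.20 and 3.62. Cxcl5, which attracts neutrophils, was at 1531 and 95.1 CPM in culture and had 0 UMIs in vivo. Against the floor it was at least 2358-fold higher in the 2-day pair and at least 74.7-fold higher in the 7-day pair. Ccl2, which attracts monocytes, was at 2481, 379, 1.08 and 3.82 CPM, a fold of 2293 (982 to 7064) and then 99.3 (52.2 to 218). Cxcl1, another attractant of neutrophils, was at 734, 238, 18.8 and 31.8 CPM, a fold of 39.0 (31.5 to 48.8) and then 7.48 (5.91 to 9.59). For each of these genes the 2-day culture was highest, the 7-day culture second and both in vivo libraries lowest. Cxcl10, which interferon induces, was at 167 and 97.5 CPM in culture against 1.30 and 3.82 in vivo, and was not called between 2 and 7 days. Ccl5 was at 213 CPM at 2 days and 4.02 at 7 days with 0 UMIs in vivo, 52.9-fold lower with longer culture (32.9 to 91.0). From 2 to 7 days of culture 9 of 14 chemokines were at least 2-fold lower and 0 higher, where 3.34% of 9986 measured genes were lower and 3.45% higher.

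The culture comparison over time called 345 genes higher and 334 lower at 7 days, and 238 and 391 with TMM factors. Of the same time step in vivo, 2.32% of 9047 genes were at least 2-fold higher and 2.56% lower at 14 than at 9 dpp.

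Regulators of these genes differed as well. Of 16 NF-kB subunits and feedback inhibitors, 13 were higher in the 2-day pair (median 2.03) and 11 in the 7-day pair (1.42), with 0 lower. Of those with 50 UMIs in both libraries, 7 of 10 and 4 of 7 were higher. Nfkbia, the inhibitor that NF-kB itself induces, was at 760, 346, 60.2 and 90.4 CPM, a fold of 12.6 (11.2 to 14.3) and 3.83 (3.31 to 4.44). The subunit gene Rela was at 55.4, 47.6, 33.3 and 34.4 CPM and was not called in either pair. Cebpb, a C/EBP factor of acute phase transcription, was at 335, 240, 48.5 and 21.6 CPM, 6.90-fold higher in the 2-day pair (6.01 to 7.96) and 11.1-fold in the 7-day pair (8.38 to 15.01). The other C/EBP factors did not follow it in both pairs. Cebpa was lower in the 2-day pair at 8.27, 22.2, 32.0 and 36.5 CPM. Cebpd, at 457, 410, 154 and 446 CPM, was higher in the 2-day pair, as Cebpb was, and not called in the 7-day pair. Cytokines and their receptors were higher for 18 of 22 and then 8 of 16 measured members, of 32 in the files, and for 7 of 10 and 3 of 9 with 50 UMIs in both libraries. Il33, an alarm cytokine kept in stromal nuclei, was at 271, 34.1, 0.433 and 0 CPM. Il6 was at 19.5 and 1.18 CPM in culture with 0 UMIs in vivo, and Il6st, its shared receptor chain, stayed within 2-fold in both pairs at 84.7, 113, 125 and 137 CPM.

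Interferon-stimulated genes were higher for 25 of 28 measured members in the 2-day pair and 1 was lower (median log2 ratio 3.23). In the 7-day pair 12 of 24 were higher and 1 lower (median 1.08). Of those with 50 UMIs in both libraries, 6 of 7 were higher in the 2-day pair, while the 7-day pair had 0 of 7 higher. From 2 to 7 days of culture 19 of 28 were at least 2-fold lower and 0 higher. Isg15, a ubiquitin-like protein, was at 216, 44.2, 5.84 and 8.91 CPM, a fold of 37.0 (25.3 to 56.4) and 4.96 (3.15 to 8.21). Irf7, a factor that amplifies the interferon response, was at 269, 27.2, 8.22 and 14.9 CPM and was called in the 2-day pair only, with a 7-day fold of 1.83 (1.24 to 2.76). Thus the 2-day culture stood apart from the other 3 libraries for Irf7. The lower member in both pairs was Ifi27, at 77.5, 97.9, 174 and 308 CPM, a gene named after its values were seen.

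MHC class I genes and the genes that load peptides on them were higher for 15 of 17 members in the 2-day pair (median 3.51) and 12 of 17 in the 7-day pair (median 2.27). Of those with 50 UMIs in both libraries, 7 of 9 and 5 of 10 were higher. H2-D1, a class I heavy chain, was at 2698, 1226, 24.4 and 85.7 CPM, a fold of 110 (91.7 to 134) and 14.3 (12.4 to 16.5). B2m, the light chain, was at 5835, 3306, 512 and 597 CPM, a fold of 11.4 (10.9 to 11.9) and 5.54 (5.24 to 5.85). Both cultures exceeded both in vivo libraries for these genes, and 3 of 17 members were at least 2-fold lower at 7 than at 2 days (median −0.61). Psme1, a proteasome activator subunit, was not called in either pair at 304, 255, 188 and 258 CPM. Class I heavy chain genes are near-identical copies, so reads may be split between them.

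**Figure D3:**
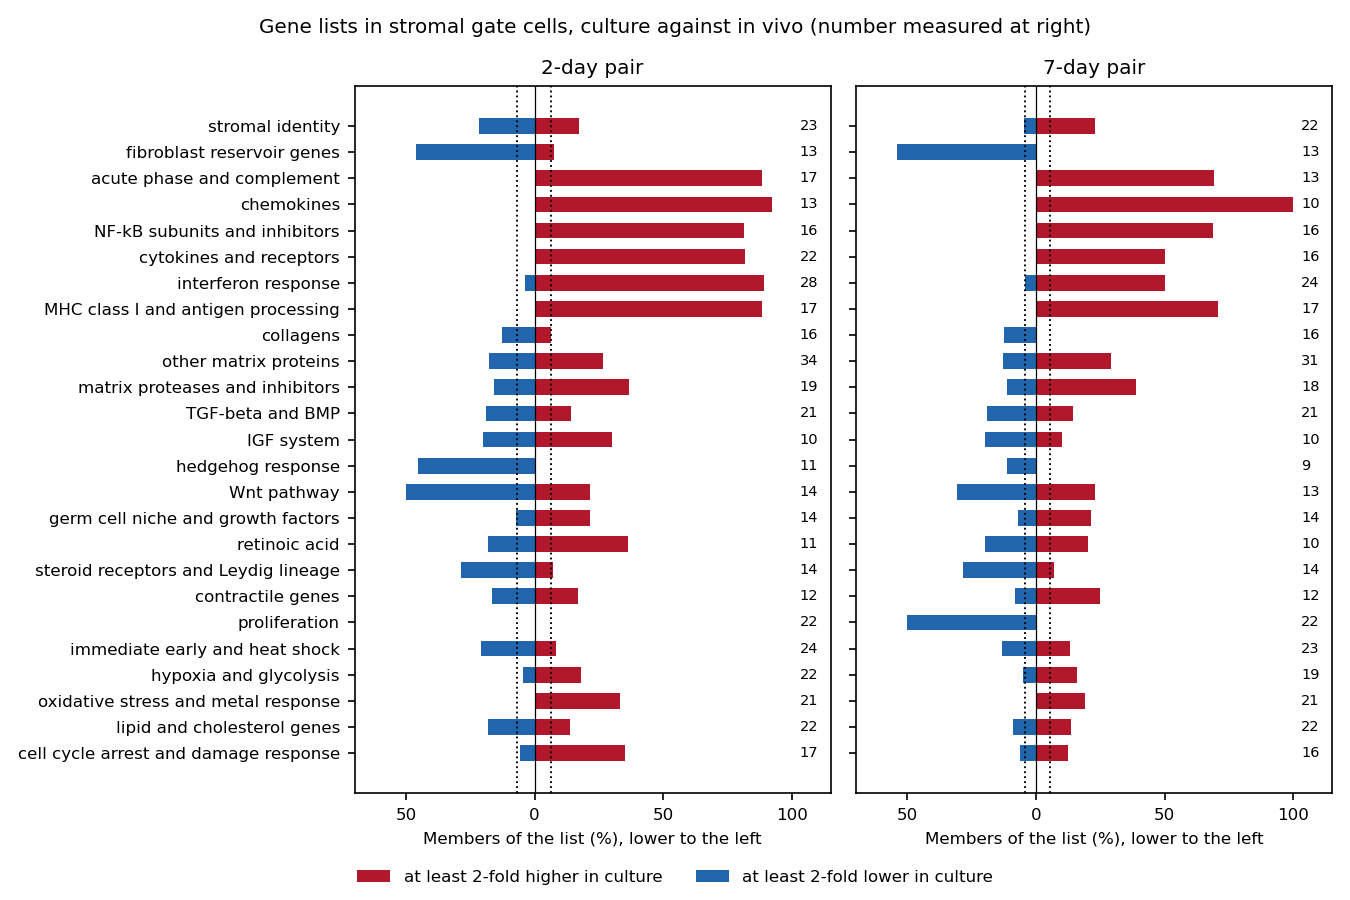
Bars give the percentage of measured members of 25 gene lists that were at least 2-fold higher (to the right) or lower (to the left) in culture than in vivo, for the 2-day pair and the 7-day pair, with the number measured beside each bar. Dotted lines mark the percentage over all measured genes, 6.39% and 6.89% on the left and 5.59% and 4.34% on the right. The chemokine bar reaches 12 of 13 members and then 10 of 10.

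Start regions of 4 called genes are shown because they hold letters that fit the factors of these pathways. They are RefSeq sequences on GRCm38.p6, 300 bases from 250 before to 50 after the start, written 5′ to 3′ on the gene's strand. GRCm38 is the assembly also called mm10, the build in the submitters' processing notes. Capitals mark matches on either strand to GGGNNNNNCC (NF-kB), TTGCNNAA (C/EBP), GAAANNGAAA (interferon-stimulated response element) or TTCNNNGAA (STAT).
Saa3, chr7:46715627-46715926, minus strand: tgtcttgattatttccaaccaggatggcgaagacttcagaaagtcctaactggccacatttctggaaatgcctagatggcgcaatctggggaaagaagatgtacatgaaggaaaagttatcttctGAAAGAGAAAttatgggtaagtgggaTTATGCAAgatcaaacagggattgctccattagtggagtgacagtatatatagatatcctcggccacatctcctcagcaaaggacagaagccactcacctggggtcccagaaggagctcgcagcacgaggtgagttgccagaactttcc
Cxcl1, chr5:90890995-90891294, plus strand: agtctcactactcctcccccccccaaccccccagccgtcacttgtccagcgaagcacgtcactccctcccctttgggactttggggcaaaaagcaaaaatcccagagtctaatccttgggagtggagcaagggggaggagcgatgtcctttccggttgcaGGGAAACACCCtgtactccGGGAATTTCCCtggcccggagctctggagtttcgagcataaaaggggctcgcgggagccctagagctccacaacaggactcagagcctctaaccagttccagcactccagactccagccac
Cxcl10, chr5:92348840-92349139, minus strand: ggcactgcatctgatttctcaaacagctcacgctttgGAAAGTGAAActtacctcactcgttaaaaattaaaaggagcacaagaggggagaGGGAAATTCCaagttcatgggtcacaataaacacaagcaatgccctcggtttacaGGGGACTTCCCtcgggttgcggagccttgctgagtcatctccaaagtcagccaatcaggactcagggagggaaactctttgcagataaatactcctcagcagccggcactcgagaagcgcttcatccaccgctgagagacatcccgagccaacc
Isg15, chr4:156200769-156201068, minus strand: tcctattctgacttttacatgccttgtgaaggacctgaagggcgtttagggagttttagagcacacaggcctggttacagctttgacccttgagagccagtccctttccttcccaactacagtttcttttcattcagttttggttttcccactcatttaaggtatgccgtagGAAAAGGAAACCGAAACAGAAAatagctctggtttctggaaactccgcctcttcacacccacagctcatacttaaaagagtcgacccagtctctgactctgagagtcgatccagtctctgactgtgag

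In Saa3 the C/EBP letters lay at −99 to −92 from the start and interferon element letters at −125 to −116. Cxcl1 had overlapping NF-kB matches that begin at −90 and −71, and Cxcl10 had 1 at −159 and an overlapping pair from −104 beside an interferon element match at −213. Isg15 held 3 overlapping interferon element matches between −78 and −57. The 276 genes higher in both pairs were looked up in the RefSeq table together with Cldn11 and Myh11, which the rule limits and which were also higher in both. Of all these genes, 193 were found, with 254 start regions. Interferon element letters were in 10.2% of these, against 3.12% of 9050 regions of genes measured in both pairs and 3.44% of all 32851. For C/EBP letters the shares were 16.5%, 8.24% and 10.8%, for STAT letters 11.8%, 6.72% and 8.30%, and for the looser NF-kB letters 70.5%, 68.1% and 50.8%. A match is a description of letters, not of binding.

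Collagen genes differed little, while other matrix genes differed in both directions. Over all measured genes 6.39% were higher and 6.89% lower in the 2-day pair, and 5.59% and 4.34% in the 7-day pair. Of 16 measured collagens 1 was higher and 2 were lower in the 2-day pair (median −0.03), and 0 and 2 in the 7-day pair (median 0.28). With 50 UMIs in both libraries, 1 was higher and 2 were lower of 15 in the 2-day pair. In the 7-day pair 0 of 12 were higher and 0 lower. Col1a1, a chain of type I collagen, was at 1987, 2057, 1764 and 1501 CPM. Summed collagen transcripts came to 7939, 8269, 8118 and 7562 CPM. Of 34 other matrix proteins 9 were higher and 6 lower in the 2-day pair (median 0.18), and 9 and 4 of 31 in the 7-day pair (median −0.06). With 50 UMIs in both libraries, 3 were higher and 5 lower of 27 in the 2-day pair, and 4 and 3 of 23 in the 7-day pair. Mgp, a matrix protein that limits calcification, was at 3206, 5422, 581 and 1463 CPM, 5.52-fold higher in the 2-day pair (5.30 to 5.75) and 3.70-fold in the 7-day pair (3.57 to 3.84). Both cultures exceeded both in vivo libraries for Mgp although it was also higher at 14 than at 9 dpp. Of 19 matrix proteases and inhibitors 7 were higher and 3 lower in the 2-day pair, and 7 and 2 of 18 in the 7-day pair. With 50 UMIs in both libraries, 4 were higher and 2 lower of 14 in the 2-day pair, and 5 and 1 of 13 in the 7-day pair. Timp1, an inhibitor of metalloproteinases, was at 2090, 423, 101 and 90.8 CPM, a fold of 20.8 (18.9 to 22.8) and 4.65 (4.04 to 5.39). Mmp11, a metalloproteinase of remodelling stroma, was at 275, 398, 55.0 and 49.6 CPM. Adamts5, which cleaves proteoglycans, was lower in culture at 228, 485, 861 and 1202 CPM.

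Some genes of resting fibroblasts were lower. Of 13 fibroblast reservoir genes, which mark fibroblasts thought to supply other types, 6 were lower and 1 higher in the 2-day pair (median −0.92), and 7 lower and 0 higher in the 7-day pair (median −1.23). Clec3b, which encodes tetranectin, was at 25.4, 34.5, 332 and 834 CPM, 13.1-fold lower (11.1 to 15.4) and 24.2-fold lower (20.4 to 28.8). It was found in 5.44% and 6.60% of thinned cultured cells and in 33.7% and 67.0% of cells at 9 and 14 dpp, against at most 0.247% of germ gate cells. Mfap5, a microfibril protein, was at 137, 29.3, 259 and 416 CPM. The higher member was Ly6c1, at 150, 23.2, 3.25 and 27.2 CPM, an antigen encoded beside Ly6a. The list did not move as a whole: Timp2, an inhibitor of metalloproteinases, was not called at 433, 643, 328 and 560 CPM.

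Other genes were lower in both pairs. Tppp3, a tubulin-binding protein, was at 18.3, 22.0, 457 and 368 CPM, 25.0-fold lower (20.8 to 30.4) and 16.7-fold lower (13.5 to 21.0). Thbd, the thrombin receptor thrombomodulin, was at 63.0, 70.5, 576 and 688 CPM. Klf2, a transcription factor of quiescence, was at 93.1, 229, 1056 and 1373 CPM, 11.3-fold lower (10.4 to 12.4) and 6.00-fold lower (5.58 to 6.45). For all 3 genes both cultures stood below both in vivo libraries. Ebf1, a transcription factor of stromal cells, was lower in the same order at 210, 517, 1077 and 1119 CPM. The matrix gene Vit was at 10.8, 6.62, 104 and 101 CPM, and Hapln1, which links hyaluronan to proteoglycans, at 0.468, 0.946, 37.9 and 17.0.

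Signalling pathways differed in part. For comparison, 6.39% of all measured genes were higher and 6.89% lower in the 2-day pair, and 5.59% and 4.34% in the 7-day pair. Of 21 TGF-beta and BMP genes 4 were lower and 3 higher in each pair. Among members that met the UMI minimum in both libraries, 0 were higher in either pair. Of these, 3 of 16 were lower in the 2-day pair and 2 of 14 in the 7-day pair. Of 11 hedgehog response genes 5 were lower in the 2-day pair (median −0.89) and 1 of 9 in the 7-day pair (median −0.15), with 0 higher. With the minimum met in both libraries, 4 of 7 were lower in the 2-day pair and 0 of 7 in the 7-day pair. Gli1, a factor and target of the pathway, was at 15.1, 34.8, 53.0 and 53.5 CPM, 3.50-fold lower in the 2-day pair (2.76 to 4.48) and 1.54-fold lower in the 7-day pair (1.20 to 1.96). Ptch1, the receptor and target, was at 45.6, 79.3, 116 and 106 CPM. Whether the pairs differ in this was not tested. Of 14 Wnt pathway genes 7 were lower and 3 higher in the 2-day pair, and 4 and 3 of 13 in the 7-day pair. With the minimum met in both libraries, 3 were lower and 1 higher of 7 in the 2-day pair. In the 7-day pair 2 were then lower and 0 higher of 5. Of 11 retinoic acid genes 4 were higher and 2 lower in the 2-day pair, and 2 and 2 of 10 in the 7-day pair. With the minimum met in both libraries, 3 were higher and 2 lower of 9 in the 2-day pair. In the 7-day pair 0 were then higher and 2 lower of 6. Cyp26b1, which breaks down retinoic acid, was at 17.3, 89.9, 268 and 359 CPM, 15.5-fold lower (12.7 to 19.0) and then 3.99-fold lower (3.54 to 4.52). Of enzymes of retinoic acid synthesis, Rdh10 was higher at 86.6, 24.1, 15.6 and 9.33 CPM. Aldh1a1 was lower at 143, 212, 319 and 477 CPM, by 2.23-fold (2.05 to 2.42) and 2.25-fold (2.06 to 2.46). Esr1, the oestrogen receptor, was at 6.40, 7.57, 34.8 and 45.8 CPM.

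Several markers of Leydig cells and macrophages were lower in the cultured gate, and their part in the results was not tested. Of the Leydig markers that the rule did not use, 2 of 3 measured were lower in the 2-day pair (median −3.09) and 4 of 4 in the 7-day pair (median −5.03), with 0 higher. Of these, 2 and 3 reached 50 UMIs in the in vivo library only. The 1 with 50 UMIs in both libraries was not called in the 2-day pair and was lower in the 7-day pair. Cyp17a1, an enzyme of androgen synthesis, was at 0.156, 0.237, 31.8 and 87.8 CPM in the gate and at 0.163, 0, 5.17 and 2.93 CPM in germ gate cells. Insl3, a hormone of Leydig cells, was at 3.28, 4.26, 35.5 and 77.6 CPM. The 5 Leydig markers that the rule did not use summed to 162, 127, 216 and 568 CPM, with 1 at 0 in each culture, and Fdx1, an electron carrier of steroid synthesis, made up 159, 121, 141 and 322 CPM of that. Cyp11a1 and Star, Leydig genes that the rule limits, had 148 and 111 UMIs in the 2-day culture against 45 and 21 at 9 dpp, and 22 each in the 7-day culture against 78 and 146 at 14 dpp. These 2 genes were thus higher in the 2-day pair and lower in the 7-day pair. Of macrophage markers 2 of 3 measured were lower and 1 higher in the 2-day pair (median −2.36), and 5 of 6 lower and 1 higher in the 7-day pair (median −4.57). No macrophage marker reached 50 UMIs in both libraries of a pair, so the minimum itself bears on these counts. All 12 summed to 64.0, 54.6, 69.9 and 249 CPM in the gate, with 4 of 12 at 0 in each culture, and Cd14 made up 58.2, 48.7, 0.433 and 4.24 CPM of that. Lyz2, a lysozyme of macrophages, was at 0.468, 2.13, 20.8 and 96.3 CPM. C1qc and Mrc1 had 0 UMIs in both cultures, and Cd14, the higher marker in both pairs, is a receptor that fibroblasts can also express. Ren1, which encodes renin, was at 5.93, 0.710, 67.9 and 127 CPM. With the stromal line raised to 0.4% the log2 ratio of Ren1 in the 2-day pair was 0.25, against −3.31, so its direction in that pair depended on the line.

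Some proliferation genes were at least 2-fold lower in the 7-day culture. In the 2-day pair 0 of 22 were called (median −0.17), and in the 7-day pair 11 were lower and 0 higher (median −0.99). Of the 15 with 50 UMIs in both libraries of the 7-day pair, 5 were lower. From 2 to 7 days of culture 14 of 22 were at least 2-fold lower. Birc5, a protein of cell division, was at 76.9, 17.0, 71.0 and 37.8 CPM, with 72 and 89 UMIs behind the 7-day pair. The 7-day count was 1 with cells thinned to 2000 UMIs and 0 with a minimum of 200 UMIs, which kept fewer genes. Of 24 immediate early and heat shock genes, 10 were at least 2-fold higher and 0 lower at 7 than at 2 days of culture (median 0.72). Hspa1a, an inducible chaperone, was at 248, 1205, 145 and 601 CPM. It was thus higher in the older library of both time steps.

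Apoe, which carries lipids out of cells, was at 962, 6411, 530 and 1190 CPM. The 7-day culture stood above the other 3, 5.38-fold over 14 dpp (5.18 to 5.60), while the 2-day fold was 1.81 (1.73 to 1.90). Metallothionein Mt2, which binds zinc, was at 1290, 339, 27.5 and 68.3 CPM in the gate but at 1193, 957, 1391 and 1124 in germ gate cells. Sod2, the mitochondrial superoxide dismutase, was at 997, 342, 108 and 121 CPM. Gsta3, a glutathione transferase, was at 324, 290, 3.03 and 5.94 CPM, a fold of 107 (63.6 to 196) and 48.8 (29.0 to 89.6). Igfbp7, an IGF-binding protein, was at 6840, 6462, 2245 and 3756 CPM and Igfbp6 at 688, 577, 1293 and 1967. Tagln, an actin-binding protein of contractile cells that the rule did not use, was at 187, 82.8, 6.06 and 5.94 CPM. Summed CPM of the 6 myoid markers that the rule did not use, Tagln among them, was 517, 394, 716 and 474, so the sum was lower in each culture than in its in vivo library. Acta2, which the rule limits, was at 393, 310, 206 and 62.8 CPM. The part of contractile transcripts in the other results was not tested.

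The cells of the gate differed among themselves in the amount of these transcripts. Of 2000 UMIs, a 2-day culture cell had a median of 43 acute phase and complement UMIs, with 3.5 at the 5th percentile and 252.5 at the 95th. A 7-day cell had a median of 6 (1 to 62.95), and cells at 9 and 14 dpp had medians of 2 (0 to 5) and 3 (0.6 to 8). Saa3 alone gave a median of 32 UMIs per cell in the 2-day culture and 0 in the 7-day culture, where the top 10% of cells held 81.6% of its UMIs against 37.4% at 2 days. Saa3 was detected in 88.7% of thinned cells at 2 days and 30.6% at 7 days. In germ gate cells the shares were 40.9% and 2.20%, at median depths of 3933 and 6846 UMIs, and their summed Saa3 level was 732 and 22.9 CPM. Free RNA can put a UMI into a cell that does not express a gene, and its part in these shares was not tested. Chemokine UMIs had a median of 4 per cell at 2 days (0 to 45) and 1 at 7 days (0 to 10.65), and collagen UMIs 14 and 12 beside 15 and 14 in vivo. Collagen medians per cell thus lay close together.

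**Figure D4:**
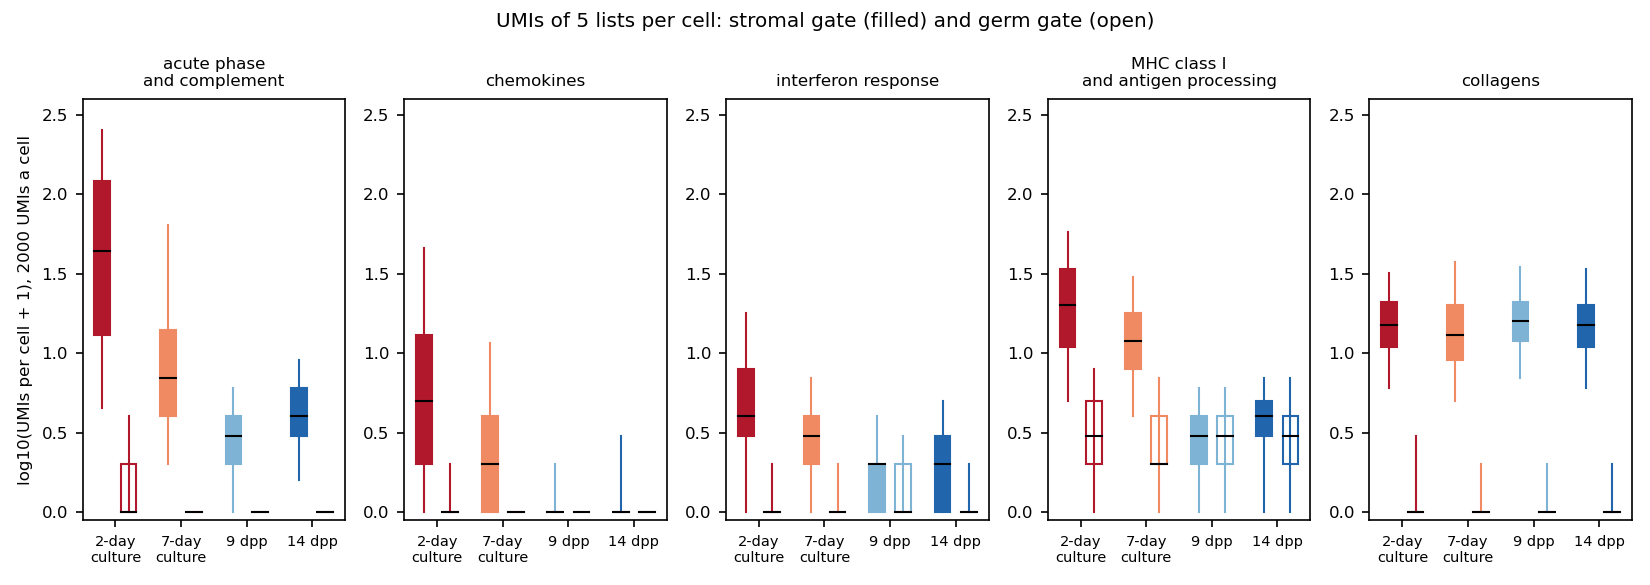
The y axis gives log10 of UMIs of a list + 1 in single cells thinned to 2000 UMIs. Black bars are medians, boxes the 25th to 75th and lines the 5th to 95th percentiles, for stromal gate cells (filled) and germ gate cells (open) of each library. Acute phase UMIs fall from a median of 43 at 2 days to 6 at 7 days, and collagen medians lie between 12 and 15.

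Compared with the other gates of the same library, the summed chemokine level in the 2-day culture was 6402 CPM in stromal, 2349 in peritubular myoid, 352 in Sertoli and 137 in germ gate cells. In the 7-day culture it was 1406, 606, 111 and 23.9 CPM in that order. Saa3 was at 32551 CPM in stromal and 20198 in myoid gate cells at 2 days, and at 4267 and 899 at 7 days. The lines of the myoid gate do not remove cells with Pdgfra and Tcf21. In the 2-day culture Tcf21 was at 825 CPM in the myoid gate and 356 in the stromal gate, and Pdgfra at 206 and 232. MHC class I genes summed to 11732 CPM in stromal, 6807 in myoid, 5078 in Sertoli and 1293 in germ gate cells at 2 days, and to 1091, 1010, 991 and 990 CPM at 9 dpp. The stromal, myoid, Sertoli and germ gates were thus all higher in the 2-day culture than at 9 dpp, the germ gate least. Other lists lay closer together between gates. In the 2-day culture NF-kB genes summed to 1580 CPM in stromal, 1303 in myoid, 1071 in Sertoli and 217 in germ gate cells. Interferon-stimulated genes summed to 2733, 2061, 1154 and 195 CPM in that order. These differences between gates have no replicate check.

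Within each culture library the gate cells were clustered without the gate genes, and the clusters are described by number since none was named. In the 2-day culture, clusters 1 to 3 held 375, 341 and 320 cells, and clusters 4 to 6 held 204, 93 and 16. Cluster 1 was led by Cxcl13, Cxcl9 and Ifit3, and its interferon list summed to 4460 CPM, the highest of the 6. Cluster 2 was led by Csf3, Cxcl5 and Il6, and its chemokines summed to 12137 CPM against 1500 to 8340 in the others. Cluster 3 was led by Hba-a1, Hbb-bs and Aldh1a1 and had 18571 CPM of Saa3. Cluster 4 was led by Rbp4, Col4a3 and Itgbl1, had 57180 CPM of Saa3, and 65.2% of its cells lay at or above 0.1% for Acta2 and Myh11. Cluster 5 was led by genes of mitosis, and cluster 6 by the germ cell genes Stra8 and Sycp1, with 7 of its 16 cells called doublets. Acute phase transcripts were thus present in each cluster, from 19754 to 67024 CPM, while chemokines differed more, and the genes that form a cluster are no result about it.

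In the 7-day culture, clusters 1 to 5 held 305, 223, 186, 102 and 8 cells. Cluster 1 was led by Ctsc, Postn and Mmp11 and had 7512 CPM of Saa3, 761 of Ccl2 and 195 of Cxcl5. Cluster 2, led by Dlk1, Clec3b and Rxfp1, had 918 CPM of Saa3 and 30 CPM of Cxcl5. Cluster 3 was led by Defb19, Cyp26b1 and Aldh1a1 and cluster 4 by Casq2, Asb2 and Plcxd3, with 1371 and 2720 CPM of Saa3. Acute phase and complement transcripts summed to 12762 CPM in cluster 1, 3722 to 5245 in clusters 2 to 4, and 18268 in the 8 cells of cluster 5, which was led by genes of mitosis. Aldh1a1, C1qtnf3, Defb19 and Mmd2 were among the 10 leading genes of cluster 3 in both cultures. Ptch1 was at 17.6 CPM in cluster 1 and 112, 128 and 150 CPM in clusters 2 to 4 of the 7-day culture.

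**Figure D5:**
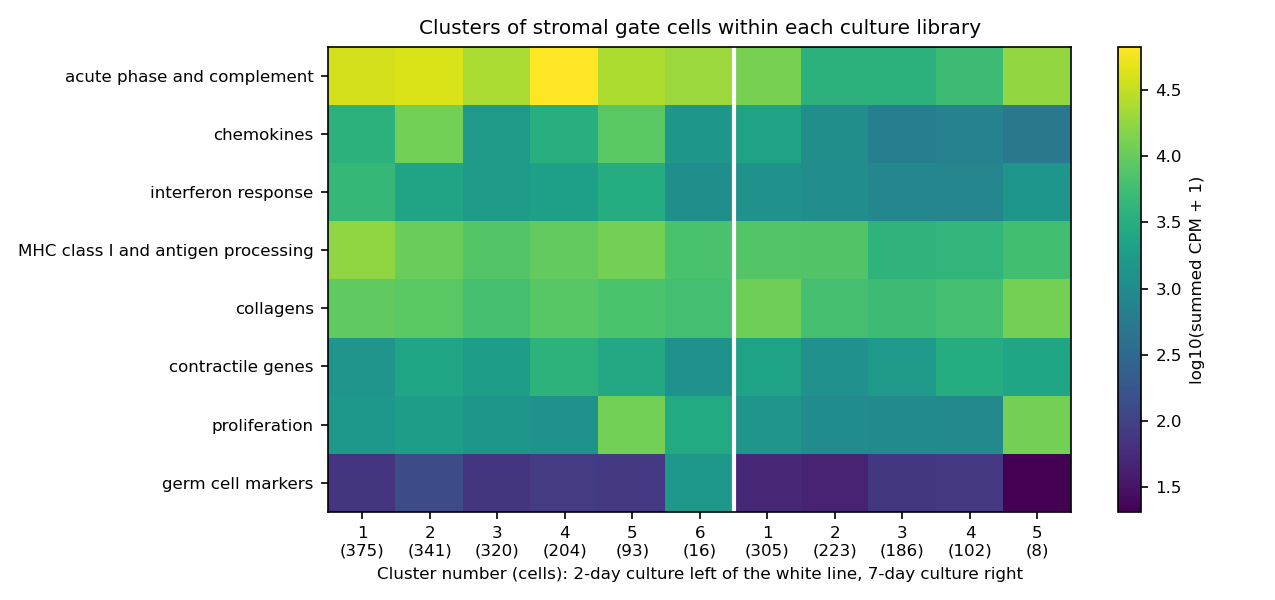
Colour gives log10 of summed CPM + 1 of 8 gene lists in the clusters of gate cells, 6 in the 2-day culture and 5 in the 7-day culture, with cell numbers in brackets. Chemokines are highest in cluster 2 of the 2-day culture, proliferation genes in both clusters 5, and germ cell markers in cluster 6 of the 2-day culture.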

How the data were processed

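Single-cell libraries of 4 groups, 1 each, were analysed. Per the file headers and the submitters' processing notes, the deposited matrices hold raw UMI counts per gene and barcode, made by the authors with Cell Ranger 3.0.2 on mm10; other settings are not given in the sources used here. They list 31053 gene identifiers with 31017 symbols, and counts of a shared symbol were added. UMIs of gate cells were summed to CPM with 1 added before log2. Folds were computed without an added constant and have exact conditional binomial intervals; shares have Clopper-Pearson and ratios of shares Katz intervals at 95%. A library at 0 UMIs was set to 3 UMIs for a lower bound. The ratio script was tested on simulated data.

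Scrublet (scanpy 1.11.5, expected rate 6%) was run per library and its calls were kept. Clusters are Leiden clusters (leidenalg 0.10.2). TMM factors came from edgeR 4.0.16. Named genes were the 12 higher and 12 lower with the largest smaller ratio of the same sign in both pairs, the 8 largest falls and 8 largest rises of the ratio from the 2-day to the 7-day pair, and up to 4 members per list, past or not past 2-fold, by culture CPM. Alternatives changed the added constant, UMI minimum, scaling, gate lines, cell weighting, depth and doublets. The gate, the lists and the rules were chosen with earlier results of these data known. Saa1, C4b, Lcn2, Cxcl10, Il6, Col1a1, Ifi27, Cd14 and the genes of clusters were named after their values were seen. Cebpa, Mrc1 and Eif2s3y were also named outside these rules. Older symbols were used for 4 list genes, and 3 were not used.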

Additional observations from a re-analysis of the deposited data

Results flagged for a closer look

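Genes past 2-fold in opposite directions in the 2-day and 7-day pairs numbered 11 of the 8940 measured in both. Whether the pairs differ was not tested, since each group had 1 library. Ifi27l2a, an interferon-induced gene, had log2 ratios of 2.76 and −1.53, at 443 and 58.0 CPM in culture and 64.5 and 169 in vivo. Lrat, which stores retinol as esters, had 2.69 and −2.98, and Alpl, an alkaline phosphatase, 1.45 and −1.63. Ms4a4d had 1.07 and −2.78, Mustn1 had 1.14 and −2.57, and Clu, which encodes clusterin and is also abundant in Sertoli cells, had 1.26 and −1.31. The 7 Sertoli markers that the rule did not use, Clu among them, summed to 185 CPM in the gate after 2 days of culture against 92.2 at 9 dpp, and to 78.8 after 7 days against 143 at 14 dpp. Clu itself made up 136, 56.0, 36.9 and 92.9 CPM of these sums in that order. In the other direction Rxfp1, the relaxin receptor, had −1.50 and 3.45, with 44, 120, 98 and 4 UMIs after 2 and 7 days of culture and at 9 and 14 dpp. Sapcd1 had −2.39 and 1.10, and Gm26825 had −1.42 and 1.72.

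The germ cell genes Sycp1 and Tex101 had 1.62 and −1.30, and 1.06 and −1.07. Germ markers summed to 1538 CPM in the cluster of 16 cells of the 2-day culture and to at most 128 CPM in the other clusters of that culture.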

How the results depend on the processing

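No paired analysis was possible because each group had 1 library, and for the same reason no library could be left out. With 10 added to CPM, the genes at least 2-fold higher and lower numbered 380 and 308 for the 2-day pair, 250 and 211 for the 7-day pair, and 85 and 146 from 2 to 7 days of culture. With no UMI minimum above 1 they were 1017 and 1153, 1059 and 1071, and 605 and 567. With a minimum of 200 UMIs they were 362 and 332, 188 and 158, and 140 and 179. With cells thinned to 2000 UMIs the 7-day pair had 300 and 243. The minimum sets how many low genes are measured, and the added constant shrinks the ratios of low genes. For the thinned cells the cause was not tested.

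Proliferation members at least 2-fold lower in the 7-day pair were 2 with 10 added, 0 with a minimum of 200 UMIs and 1 with thinned cells. In the 2-day pair they were 2 with cells weighted equally and 2 with the stromal line at 0.4%; the cause was not tested. With a minimum of 200 UMIs, 5 interferon genes and 6 MHC class I genes were higher in the 7-day pair, with fewer genes measured. The log2 ratio of gate shares was 0.31 and 1.01 with the line for Acta2 and Myh11 at 0.1%, and 0.71 in the 2-day pair with at least 1000 genes and at most 10% mitochondrial UMIs. Ren1 turned to 0.25 in the 2-day pair with the stromal line at 0.4%. Of the values of named genes over all alternatives, 636 moved beyond their counting interval, 3419 stayed within it and 1 reversed. Of list medians 52 moved and 637 did not, and 20 counts of genes moved by over 1.5 times while 58 did not. Leaving out the cluster of germ cell transcripts, or Saa3 from the total, were alternatives chosen after seeing the data, and the 2-day pair then had 643 and 697, or 682 and 645 genes.

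Depth limits genes near 1 CPM in vivo, where a fold rests on few UMIs.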
